A study of Mus musculus with 6 samples.

Results

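The genes described here are the serpins and the genes of the plasminogen activator system on the array. They are every gene whose symbol begins with Serpin, a clade letter from a to i and a number, together with Plat, Plau, Plaur and Plg. These rules gave 43 genes of the 18193 that a probe set with a single gene symbol named: 39 serpins, 13 of them in clade A and 18 in clade B, and the 4 plasminogen genes. Where a gene had several probe sets, the one with the highest mean signal over the 6 arrays stood for it, a choice that arose in 13 of the 43 genes.

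The study set 3 granulosa cell tumors of Smad1/5/8 mutant mice against 3 samples of wild-type granulosa cells, with 1 array for each sample. The 3 Smads (Smad8 is now named Smad9) are transcription factors through which receptors for bone morphogenetic proteins act. The tumors were untreated, and the design text calls them independent of each other; the sources used here give neither the kind of mutation nor the strain, age or sex of these animals. Wild-type cells came from C57BL/6J;129S5/SvEvBrd females aged 21 days, isolated 44 to 46 h after an injection of PMSG (pregnant mare serum gonadotropin, which drives follicles to grow), with 2 to 3 females pooled in each sample. Tumor tissue was thus set against isolated cells, and primed mice against untreated ones, and these differences cannot be told apart from the genotype.

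Serpins are a family of proteins that share 1 fold. Most of them inhibit serine proteases by offering a loop as bait: the protease cuts the loop, and the serpin snaps into a new shape and holds the enzyme in a dead complex. Plasminogen is the inactive precursor of plasmin, a protease that dissolves fibrin and helps to break down extracellular matrix; tissue-type plasminogen activator (Plat) and urokinase (Plau) cut it into its active form, urokinase does so bound to its receptor (Plaur), and several serpins stop these steps. In the ovary, granulosa cells are known for secreting plasminogen activators under gonadotropins, and the system is linked to the opening of the follicle wall at ovulation.

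A signal of 100 on at least 3 of the 6 arrays was required for a test, and 14 of the 43 genes passed: 2 of the 4 plasminogen genes, 3 of the 13 clade A serpins, 5 of the 18 clade B serpins, and Serpinf1, Serping1, Serpinh1 and Serpini1. Tumors had higher signals of 7 of the 14 and lower signals of 1, and 6 did not pass the test (limma over 11611 genes, Benjamini-Hochberg adjusted p under 0.05). Among all genes tested, 14.5% were called higher and 12.6% lower. Of the 14 genes, in 7 the lowest tumor exceeded the highest wild-type sample and in 2 the highest tumor lay under the lowest wild-type sample, patterns that 23.7% and 22.6% of all tested genes showed. The median log2 fold change was 0.52 over the 14 genes and 0.00 over all tested genes. Of the 14, 2 passed the filter through 1 group alone, Serpina6 through the tumors and Serpina3a through the wild-type samples, so a difference was built into their passing. All p-values set the groups against the spread between these samples, and 3 arrays in each group limit the precision of every value; fold changes are of the signal plus 32, which understates the change of dim genes.

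**Figure D1:**
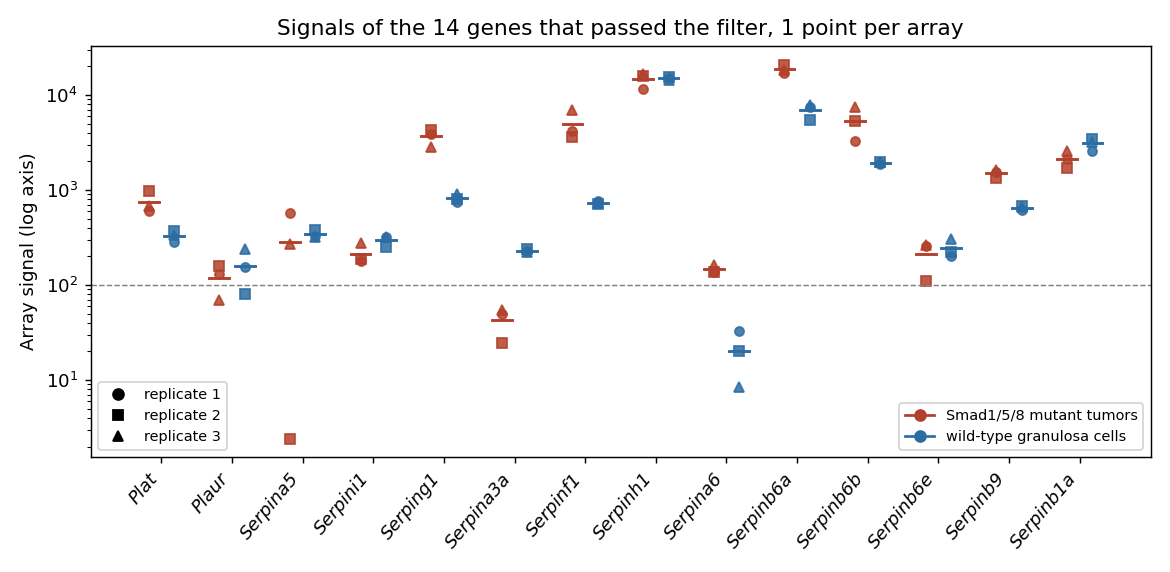
Array signal on a log axis for the 14 genes that passed the filter, with 1 point for each array, tumors left of wild-type samples, short bars at the group means and a dashed line at the signal minimum of 100. Serpinf1 and Serping1 show wide gaps between the groups, Serpinh1 shows none, and 1 tumor lies at 2.43 for Serpina5.

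The labels were checked against granulosa markers. Counts of marker lists, here and below, are to be set beside the shares over all tested genes, 14.5% higher and 12.6% lower. Of 10 granulosa markers on the array, all 10 were tested; 3 were lower in tumors, 1 was higher and 6 did not pass. The 3 lower were Inhba, Fshr and Fst, with log2 fold changes of -5.42 (SE 0.48), -3.23 (SE 0.45) and -0.99 (SE 0.20). The 1 higher was Amh, at 2.00 (SE 0.59). Inha, the inhibin alpha subunit, was not called. It read between 29873 and 35108 in tumors and between 38240 and 49454 in wild-type cells. These 5 markers were named after their values were seen. Markers of some other cells moved with the groups. Of tested markers, 12 of 12 for macrophages and 9 of 9 for smooth muscle and pericytes were higher in tumors. So were 8 of 9 fibroblast markers and 5 of 11 endothelial markers, and 0 of these were lower. In these lists 2 smooth muscle and pericyte markers and 1 fibroblast marker passed the filter through the tumors alone. Summed over each list, macrophage markers read 22098 to 24608 in tumors against 3633 to 4487 in wild-type cells, and fibroblast markers 32181 to 54160 against 10136 to 13293. Smooth muscle and pericyte markers summed to 20161 to 37171 in tumors and 5385 to 6917 in wild-type cells, and endothelial markers to 6961 to 13870 and 2282 to 3245. Granulosa markers summed to 69698 to 87146 in tumors and 135945 to 151311 in wild-type cells. Itgam was the sole marker of these 5 lists below 100 on all 6 arrays. Further lists did not share this rise. Of 6 tested theca markers 2 were higher and 2 lower, and 1 had passed the filter through the tumors alone. Their sums were 8610 to 30783 in tumors and 16484 to 23811 in wild-type cells. Of 5 tested epithelial markers 0 were called. Of 3 tested red cell and platelet markers 1 was higher and 0 lower, with Gp9 and Hba-a1 below 100 on all 6 arrays. RNA quality was read from the control probe sets at both ends of a transcript: the 3' over 5' log2 ratio for Actb was 0.81 ± 0.21 in tumors and 0.45 ± 0.19 in wild-type cells (SD, n = 3 each), and that of Gapdh was -0.36 ± 0.11 and -0.39 ± 0.07. The part of these differences in the changes described below was not tested, and in such bulk samples fewer cells of a type and less RNA in each cell cannot be told apart.

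**Figure D2:**
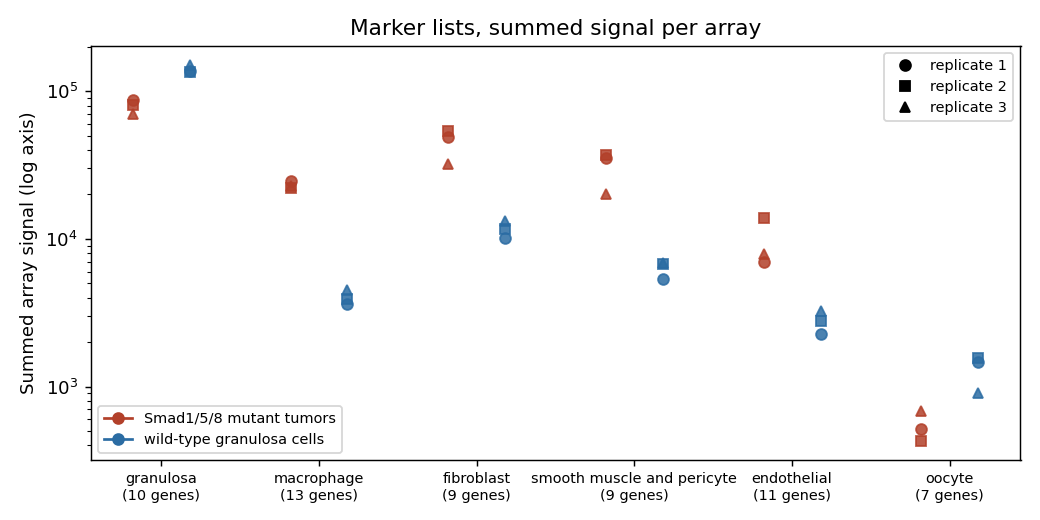
Summed array signal of 6 marker lists on a log axis, with 1 point for each array and tumors left of wild-type samples. Macrophage, fibroblast, smooth muscle and endothelial sums lie higher in all 3 tumors, and granulosa and oocyte sums lower, with the endothelial sum highest in tumor replicate 2 and the fibroblast sum lowest in tumor replicate 3.

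Of the activators, Plat was the one measured above the signal minimum. Plat read 596.8, 979.4 and 685.8 in tumors, against 282.4, 370.2 and 337.7 in wild-type cells. The lowest tumor lay above the highest wild-type sample, and the tumors differed more among themselves than the wild-type samples did. Its log2 fold change was 1.10 (limma SE 0.21, adjusted p = 0.0109), a ratio of mean signals of 2.28. A second Plat probe set stayed at or below 38.6 on all arrays and gave no value to compare. Oocytes also express Plat. Oocyte markers summed to 428 to 685 in tumors and 906 to 1570 in wild-type cells, with Bmp15 below 100 on all 6 arrays; of 5 tested, 4 were lower in tumors and 0 higher, but 3 had passed the filter through the wild-type samples alone. The part of oocytes in the Plat result was not tested.

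Plau, the urokinase gene, read 4.73, 34.98 and 75.79 in tumors and 4.30, 22.0 and 55.4 in wild-type cells. Its other probe set reached at most 70.38, so urokinase transcript was not detectable above the minimum in either group. Plaur, the urokinase receptor gene, lay near the minimum, at 129.7, 157.9 and 69.88 in tumors against 156.2, 81.0 and 241.6 in wild-type cells. These groups overlapped, and the difference was not called (log2 fold change -0.30, 95% interval -1.16 to 0.56, limma adjusted p = 0.574). Plg, the plasminogen gene, which is made mainly in liver, read at most 41.4 in tumors and 50.4 in wild-type cells.

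The rule found 4 serpins that are known to act on plasminogen activators or plasmin, and 2 of them passed the filter. Serpina5, the protein C inhibitor, which also inhibits urokinase, split the tumors. It read 576.8, 2.43 and 268.1 in tumors, against 326.5, 376.2 and 319.8 in wild-type cells. Tumor replicate 1 lay above every wild-type sample, replicate 3 below every one, and replicate 2 near 0; with signals under 100 set to 100, the highest tumor was at least 5.77-fold above the lowest, against 1.18-fold among wild-type samples. The difference was not called (log2 fold change -1.01, SE 0.94, limma adjusted p = 0.459), and without tumor replicate 2 the value was 0.20. Serpini1, the neuroserpin gene, whose product inhibits tissue-type plasminogen activator, read 179.0, 185.9 and 276.0 in tumors and 317.8, 250.7 and 321.1 in wild-type cells. The lowest wild-type sample lay within the tumor range, and the log2 fold change of -0.43 was not called (SE 0.20, limma adjusted p = 0.146). A dimmer Serpini1 probe set read 89.07, 124.6 and 166.1 in tumors against 267.1, 232.0 and 225.9 in wild-type cells without overlap, and passed when every probe set was tested (log2 fold change -0.81, limma adjusted p = 0.0302), so the call depends on the probe set. Serpinb2, the gene of plasminogen activator inhibitor 2, reached 41.93 in tumors and 4.50 in wild-type cells, and Serpinf2, the gene of alpha-2-antiplasmin, 14.31 and 34.7.

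Serping1 encodes C1 inhibitor, which blocks the proteases that start the complement cascade and those of the contact system. Serping1 read 3897.6, 4305.9 and 2824.0 in tumors, against 748.1, 798.6 and 914.1 in wild-type cells. The dimmest tumor was still far above the brightest wild-type sample, and the log2 fold change was 2.10 (SE 0.19, limma adjusted p = 0.000921). Serping1 was lowest in tumor replicate 3, the tumor with the lowest fibroblast and smooth muscle sums, while the macrophage sums of the tumors lay close together. The part of any of these cells in the Serping1 result was not tested. Among the other extracellular inhibitors, Serpinc1 (antithrombin) and Serpind1 (heparin cofactor II) did not pass the filter. Serpinc1 read 39.41 to 52.36 in tumors and 59.7 to 92.3 in wild-type cells, and Serpind1 9.62 to 74.54 and 70.9 to 113.4.

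Serpinf1, the gene of pigment epithelium-derived factor, a secreted serpin that inhibits no protease and is known to restrain blood vessel growth, had a log2 fold change above that of the other 13 genes at the pseudocount of 32. With a pseudocount of 1 Serpina6, dim in wild-type cells, was higher (2.95, against 2.68 for Serpinf1). Serpinf1 read 4184.4, 3613.9 and 6912.6 in tumors, against 763.5, 716.1 and 727.8 in wild-type cells. Wild-type samples were nearly alike, and all 3 tumors lay several-fold above them, with replicate 3, where the fibroblast sum was lowest, at the top. The part of fibroblasts in this result was not tested. The log2 fold change of Serpinf1 was 2.63 (SE 0.25, limma adjusted p = 0.000936), and that of a second probe set 2.19 when every probe set was tested (limma adjusted p = 0.00085). The neighbouring gene Serpinf2, with no protein-coding gene between them in RefSeq's GRCm38.p6 annotation, stayed below 100 on every array. The 250 bases before the Serpinf1 start (chr11:75422624-75422873, minus strand, RefSeq GRCm38.p6) are shown because Serpinf1 was among the genes called higher under either scaling and because Smad proteins were the mutated factors; capitals mark each CAGAC, the core of a Smad-binding element.
Serpinf1: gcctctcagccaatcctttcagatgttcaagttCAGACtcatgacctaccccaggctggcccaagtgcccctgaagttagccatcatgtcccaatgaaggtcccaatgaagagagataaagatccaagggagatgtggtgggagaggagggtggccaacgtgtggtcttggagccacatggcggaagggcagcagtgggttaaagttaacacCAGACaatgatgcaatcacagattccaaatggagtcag
The search covered both strands for 7 motifs. GAS, bound by STAT factors, was searched as TTCNNNGAA, and the ISRE, bound by interferon regulatory factors, as a GAAA on either side of any 2 bases. The Smad box was searched as CAGAC and its GC-rich form as GGCGCC, the TATA box as TATAAA, the GC box as GGGCGG and the cyclic AMP response element as TGACGTCA. CAGAC stood in 42.2% of the 32851 windows of this length in the table, so a match by letters alone is common, and none is evidence of binding. Among the tested genes CAGAC also stood before Serpina5, Serpinb6e and Serpinh1, which were not called. The GC-rich form, found in 9.59% of windows, stood before Serpina3a, the gene called lower, and not before Serpinf1. Of the 14 genes 10 were matched to the promoter table, and the others were Plat, Serping1, Serpina6 and Serpinb1a.

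Of the other serpins that do not act as protease inhibitors, Serpinh1 encodes Hsp47, the collagen chaperone of the endoplasmic reticulum. Serpinh1 read 11623, 15813 and 16524 in tumors and 14919, 15553 and 14480 in wild-type cells. The tumor range spanned the wild-type range, and the difference was not called (log2 fold change -0.05, 95% interval -0.46 to 0.36, limma adjusted p = 0.86); a second probe set gave -0.11. Of 16 other collagen synthesis genes, all tested, 6 were higher, 1 lower and 9 not called. The shares over all tested genes were 14.5% higher and 12.6% lower. The 6 higher were all collagen chains (Col1a1, Col1a2, Col3a1, Col4a1, Col4a2 and Col5a1), and the chain Col5a2 was not called. No enzyme or chaperone gene of the list was called higher. This split of the list was made after the values were seen. Col4a2 and Col4a1, the chains of basement membrane collagen, had log2 fold changes of 2.63 (SE 0.25) and 2.53 (SE 0.24), and Col1a2 1.61 (SE 0.19). The gene that fell, named after its values were seen, was P3h1, a collagen prolyl hydroxylase gene, at 762.5 ± 174.2 in tumors and 1649.5 ± 233.0 in wild-type cells (SD, n = 3). Col1a1 and Col3a1, both called, also stand on the fibroblast marker list.

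Serpina6, the gene of corticosteroid-binding globulin, which carries glucocorticoids in plasma, read 135.9, 137.9 and 164.2 in tumors, against 32.7, 20.2 and 8.50 in wild-type cells. All wild-type arrays lay below 100, which makes the change at least 1.45-fold (limma adjusted p = 0.00158). Because Serpina6 passed the filter through the tumors alone, a difference was built in, and its p-value adds no separate support. Hepatocytes are the known source of this protein, and of 7 hepatocyte markers on the array Alb, Ttr, Ahsg and Fgb were below 100 on all 6 arrays, while of the 2 tested 1 (Apoa1) was higher and 1 (Cyp2e1) was not called, both named after their values were seen. The list summed to 9887 to 14153 in tumors and 1643 to 2180 in wild-type cells. Most of each sum was Apoa1, at 7083.4, 10394.8 and 7850.2 in tumors and 1529.7, 1990.3 and 1271.5 in wild-type cells. Cyp2e1 read 2700.7, 88.33 and 6177.0 in tumors. The sum therefore does not describe the list as a whole. Serpina3a, a clade A serpin of the family of antichymotrypsin relatives that is expanded in mice, was the gene that fell. It read 50.16, 24.35 and 54.40 in tumors, against 226.8, 242.1 and 221.2 in wild-type cells, and all tumor arrays lay below 100, a change of at least 2.30-fold (limma adjusted p = 0.00137). Serpina3a passed the filter through the wild-type samples alone, so the same limit holds for its p-value. Its protein-coding neighbour is Serpina5. Probe sets of this family can detect near-identical relatives, so the assignment to Serpina3a is uncertain.

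Clade B serpins stay mostly inside cells. The 18 on the array fall on 2 chromosomes, and signal was found on 1 of them: 5 of the 11 genes of chromosome 13 passed the filter and 0 of the 7 of chromosome 1 did. Along chromosome 13 the order of these members is Serpinb1a, Serpinb6b, Serpinb9, Serpinb9b, Serpinb1b, Serpinb9c, Serpinb9d, Serpinb9g, Serpinb6e, Serpinb6c and Serpinb6a, with a few other genes between. Serpinb6b, Serpinb9 and Serpinb6a rose, and Serpinb1a and Serpinb6e were not called. Members of this family are alike in sequence, so some signal may be shared between them.

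Serpinb6a, whose human counterpart inhibits cathepsin G, read 16867, 20836 and 18438 in tumors, against 7491, 5426 and 7815 in wild-type cells. The groups lay far apart relative to their spread, and the log2 fold change was 1.45 (SE 0.19, limma adjusted p = 0.00269). Serpinb9, an inhibitor of granzyme B that protects cytotoxic lymphocytes from their own enzyme, read 1559.8, 1352.0 and 1635.2 in tumors, against 610.0, 680.5 and 657.1 in wild-type cells. Its log2 fold change was 1.18 (SE 0.14, limma adjusted p = 0.00209), and a second probe set gave 1.31. Of 9 lymphocyte markers on the array 1 was tested and was not called, and Cd2, Cd3e and Nkg7 were below 100 on all 6 arrays; the list summed to 505 to 853 in tumors and 388 to 643 in wild-type cells.

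Serpinb6b read 3263.3, 5308.9 and 7546.8 in tumors, against 1857.0, 1985.9 and 1984.9 in wild-type cells. Wild-type samples were nearly equal while the highest tumor was 2.31-fold above the lowest, and the log2 fold change was 1.37 (SE 0.29, limma adjusted p = 0.0145); without wild-type replicate 1 the call was lost (limma adjusted p = 0.0568). Serpinb1a, an inhibitor of neutrophil elastase and cathepsin G, read 2117.9, 1700.7 and 2576.7 in tumors and 2578.2, 3465.1 and 3231.8 in wild-type cells. The brightest tumor and the dimmest wild-type sample were nearly equal, and the log2 fold change of -0.54 was not called (SE 0.20, limma adjusted p = 0.0897), though it passed without tumor replicate 3 (limma adjusted p = 0.047). Markers of mast cells and neutrophils, cells that store the proteases it inhibits, summed to 1616 to 2454 in tumors and 515 to 666 in wild-type cells, with 1 of 3 tested higher, which passed the filter through the tumors alone, and Elane, the elastase gene itself, below 100 on all 6 arrays. Serpinb6e had a mean of 211.9 ± 87.03 in tumors and 243.1 ± 54.05 in wild-type cells (SD, n = 3), also not called, from a probe set of a type that can detect other transcripts.

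The 250 bases before the starts of the 3 clade B genes that rose are shown side by side, although only Serpinb6b and Serpinb9 are adjacent and 7 of the members lie between Serpinb9 and Serpinb6a; capitals mark every match to the 7 motifs above. They are Serpinb6a at chr13:34002795-34003044 on the minus strand (the first of 2 starts in the table), Serpinb6b at chr13:32965011-32965260 and Serpinb9 at chr13:33004291-33004540 on the plus strand, from RefSeq GRCm38.p6.
Serpinb6a: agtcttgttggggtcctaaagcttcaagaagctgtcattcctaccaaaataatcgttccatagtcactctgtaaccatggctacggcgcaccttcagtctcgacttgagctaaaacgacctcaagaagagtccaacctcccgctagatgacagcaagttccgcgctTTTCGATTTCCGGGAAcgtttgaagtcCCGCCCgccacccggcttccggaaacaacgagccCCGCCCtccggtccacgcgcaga
Serpinb6b: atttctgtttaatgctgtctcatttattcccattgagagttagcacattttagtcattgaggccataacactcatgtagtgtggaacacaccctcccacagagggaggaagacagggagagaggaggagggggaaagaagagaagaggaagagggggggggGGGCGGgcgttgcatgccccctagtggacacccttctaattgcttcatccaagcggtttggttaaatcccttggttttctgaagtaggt
Serpinb9: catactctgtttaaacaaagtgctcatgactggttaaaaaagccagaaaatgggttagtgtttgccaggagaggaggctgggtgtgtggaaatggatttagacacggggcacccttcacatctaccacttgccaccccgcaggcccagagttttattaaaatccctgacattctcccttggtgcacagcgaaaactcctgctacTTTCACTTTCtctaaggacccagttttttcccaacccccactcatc
Serpinb6a held a GAS match and, overlapping it, an ISRE match on the reverse strand between 84 and 69 bases before the start, and Serpinb9 an ISRE match on the reverse strand 46 to 37 bases before it. GAS letters stood in 7.02% and ISRE letters in 2.98% of all windows. Serpinb6b held neither; its single match was a GC box, found in 32.7% of windows, and Serpinb6a held 2 of these. The second Serpinb6a start had no match to any of the 7.

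**Figure D3:**
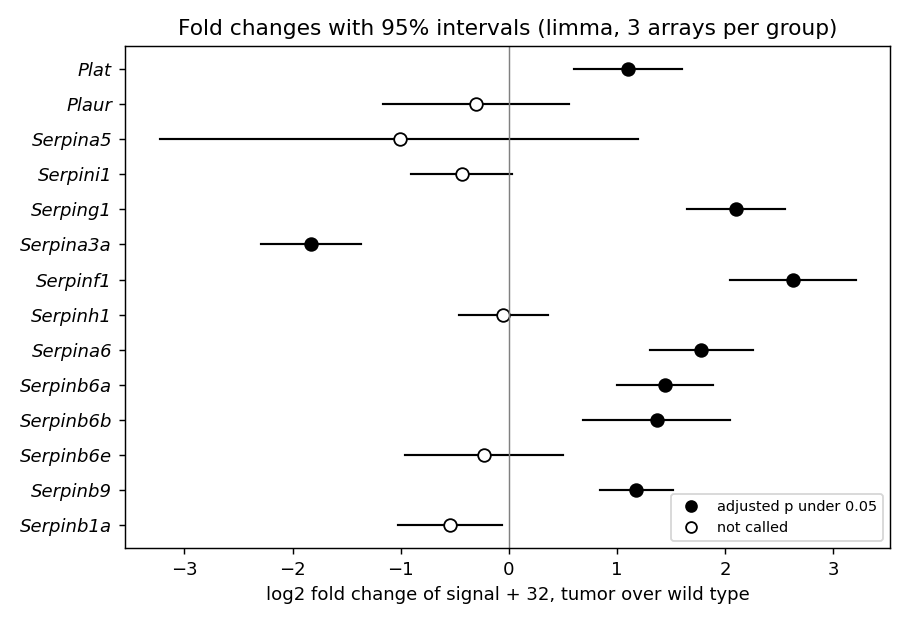
Log2 fold change of the signal plus 32, tumor over wild type, with 95% intervals from limma, for the 14 genes that passed the filter; filled points passed the adjusted p of 0.05. Serpinf1 is highest at 2.63 and Serpina3a lowest at -1.83, and Serpina5 has the widest interval, -3.23 to 1.2.

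Among the 29 genes that were not tested, 24 stayed below 100 on every array and 5 reached it at least once. Serpinb1b read 96.99, 103.2 and 83.06 in tumors, against 8.20, 7.60 and 18.6 in wild-type cells, without overlap. Serpina3n, an inhibitor of granzyme B and cathepsin G in mice, read 51.13, 127.7 and 451.1 in tumors, against 32, 59.2 and 8.60 in wild-type cells. Tumor replicates 2 and 3 lay above all wild-type samples, and the highest tumor was at least 4.51-fold above the minimum of 100, under which replicate 1 lay. Serpinb9b read 99.14 to 131.2 in tumors and 73.1 to 94.5 in wild-type cells, Serpinb11 27.29 to 105.2 and 28.6 to 81.0, and Serpind1 is given above.

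The spread within each group was compared by description alone. The SD of log2(signal + 32) was larger among the 3 tumors in 11 of the 14 genes, against 61.5% of all genes tested. The median SD of the 14 was 0.33 in tumors and 0.16 in wild-type cells, and that of all tested genes 0.24 and 0.19. Serpina5 had the largest, 2.16 in tumors against 0.12 in wild-type cells. No single tumor was highest throughout: replicate 3 was highest for Serpinf1 and Serpinb6b, replicate 2 for Plat, Serping1 and Serpinb6a, and replicate 1 for Serpina5.

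**Figure D4:**
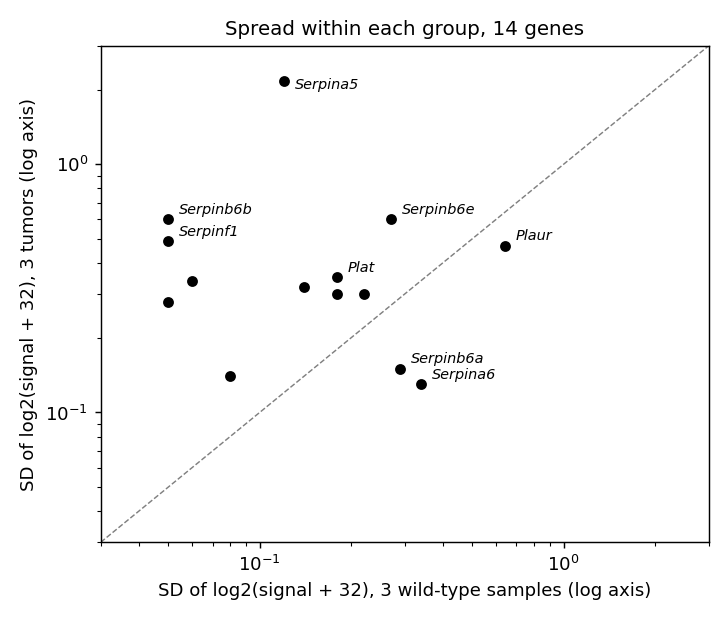
SD of log2(signal + 32) among the 3 tumors against that among the 3 wild-type samples, both on log axes, with 1 point for each of the 14 genes and a dashed line of equal spread. Of the 14 points 11 lie above the line, Serpina5 farthest, and Plaur, Serpinb6a and Serpina6 lie below it.

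Other genes of the system were taken from lists drawn up by function. Of 88 on the array 53 were tested, and 20 were higher in tumors, 5 lower and 28 not called. The shares over all tested genes, to be set beside the counts of each list, were 14.5% higher and 12.6% lower. Among proteases that serpins inhibit, 4 of 10 rose and 2 fell. Masp1, a complement protease of the lectin pathway and a target of C1 inhibitor, had the largest change of all 5 lists. It read 154.7, 138.3 and 189.5 in tumors, against 5418.2, 5786.9 and 5423.1 in wild-type cells, which gave -4.86 as the log2 fold change (SE 0.15, limma adjusted p = 3.12e-05). Its signal in tumors was close to the minimum, while the C1 inhibitor gene was several-fold higher there; all 5 of its passing probe sets were lower in tumors, by log2 fold changes from -2.16 to -5.23. Cela1, an elastase gene, and Ctsk, the gene of cathepsin K, which degrades collagen, rose by log2 fold changes of 2.11 (SE 0.35) and 2.00 (SE 0.33). The other gene that fell, named after its values were seen, was Ctsl, a cathepsin gene, at 16867 ± 2722 in tumors and 29157 ± 1869 in wild-type cells (SD, n = 3).

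Plasminogen receptors and cofactors moved both ways, with 4 of 9 higher, 2 lower and 3 not called. The 2 that fell, named after their values were seen, were Plgrkt, a plasminogen receptor gene, at 1226.2 ± 103.2 in tumors and 1916.9 ± 280.6 in wild-type cells, and Itgb1, the integrin beta-1 gene, at 3056.6 ± 248.0 and 4573.8 ± 297.3 (SD, n = 3). The fall of Itgb1 rests on 1 of its 3 passing probe sets, since the others gave 0.09 and -0.03 as log2 fold changes (limma adjusted p = 0.701 and 0.918). Mrc2, a collagen receptor that joins with the urokinase receptor, had a log2 fold change of 1.27 (SE 0.28). That of Anxa2, which binds plasminogen and tissue-type activator at the cell surface, was 1.09 (SE 0.18). A dimmer Anxa2 probe set gave 0.82 (SE 0.33) and was not called when every probe set was tested (limma adjusted p = 0.113). S100a10, the partner of annexin A2, was called with 0.96 as its log2 fold change (SE 0.22, limma adjusted p = 0.0185) on its brightest probe set, but its other probe sets gave 0.21 and -1.08. Itgav, named after its values were seen, was called higher with 0.55 (SE 0.15) on its brightest probe set, but its others gave 0.14 and -0.08. Of coagulation and fibrinolysis genes 4 of 10 rose and 0 fell. Vwf, made by endothelial cells and platelets, rose at least 4.72-fold but passed the filter through the tumors alone, Tfpi, the inhibitor of tissue factor, by a log2 fold change of 2.33 (SE 0.17), and A2m, a broad protease trap that is no serpin, by 1.78 (SE 0.20). Vwf was highest in tumor replicate 2, at 1115.5 against 266.7 and 354.2 in the other tumors, the tumor with the highest endothelial sum. The part of endothelial cells in the Vwf result was not tested. Of 8 tested genes that plasmin acts on or that act after it, Mmp2, a gelatinase gene, rose by a log2 fold change of 2.44 (SE 0.19) and Lama1, a laminin chain gene, by 1.5 (SE 0.19), and 6 were not called. The medians of the 5 lists lay between 0.11 and 1.06.

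**Figure D5:**
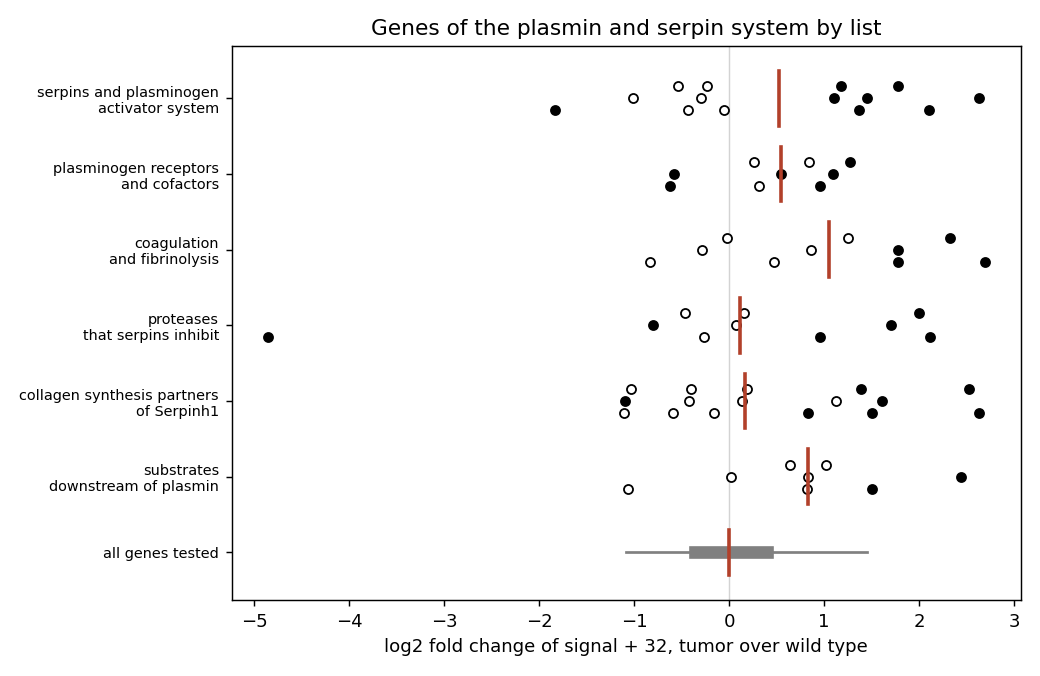
Log2 fold change of the signal plus 32, tumor over wild type, for the tested genes of each list, with filled points for an adjusted p under 0.05 and red bars at list medians; grey bars give the 5th to 95th (thin) and 25th to 75th (thick) percentiles of all 11611 genes. Masp1 stands alone at -4.86, and all genes tested lie mostly between -1.08 and 1.45.

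The calls rest on scaling each array to its own trimmed mean. Scaled to the bacterial hybridisation controls, the median of all tested genes was -0.98 on the log2 scale. Of all called genes 5.23% were then higher in tumors, against 53.5% as deposited and 65.4% with each array scaled to its median. Serpinf1 (1.6), Serping1 (1.08) and Serpina6 (1.14) were still called higher and Serpina3a lower. The same probe sets were fitted here. Serpina6 had passed the filter through the tumors alone and Serpina3a through the wild-type samples alone, so a difference was again built in for both. Plat (0.11, limma adjusted p = 0.771), Serpinb6a (0.40, 0.302), Serpinb6b (0.33, 0.381) and Serpinb9 (0.17, 0.671) were no longer called, and the 6 genes not called above were called lower. Relative to the shifted median of all genes, the values of Plat, Serpinb6a, Serpinb6b and Serpinb9 were 1.10, 1.38, 1.32 and 1.15 on the log2 scale. Because this scaling multiplies each whole array by a single factor, subtracting the median largely returns the first values by construction. The subtraction therefore does not restore the lost calls.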

How the data were processed

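RNA from 3 tumors and 3 wild-type granulosa cell samples was measured on 1-colour Affymetrix arrays of 45101 probe sets. The authors deposited linear intensity values for each probe set, and the submitters' processing notes name MAS5 for wild-type arrays and GCOS for tumor arrays, without versions. Each array's mean without the outer 2% at each end is 500. Tumor tissue alone was stored in an RNA-preserving liquid and wild-type RNA alone was treated with DNase on the column, per the labels' protocols.

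Genes were named from GEO's platform annotation, and all 43 members matched a RefSeq gene (GRCm38.p6) by Entrez number. Left out were 64 control probe sets, 932 naming several genes and 9160 naming none; serpins outside the table used here were not analysed. Probe sets needed a signal of 100 on 3 of 6 arrays, the brightest passing one stood for its gene, and log2(signal + 32) was fitted with limma 3.58.1 (R 4.3.3) over 11611 genes, with Benjamini-Hochberg adjustment. For a group below 100 on all its arrays, a fold is a bound from the other group's mean log2 signal against the minimum of 100. Full values were planned for members whose groups do not overlap and whose higher mean is at least 500, and for the plasminogen genes. Outside this rule they were also printed for Serpina5, Serpini1, Serpinh1, Serpina6, Serpina3a, Serpinb1b and Serpina3n. Other members that passed, or that reached 100 on any array, could be named. Of each further list the 3 called genes with the largest change could be named. Members and lists were chosen with earlier results of these data known. The fit was tested on simulated data. Alternatives covered the filter, pseudocount, scaling, probe set, trend, replicate block and each array left out. Python 3.11.15 and pandas 2.3.3 were used for tables.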

Additional observations from a re-analysis of the deposited data

How the results depend on the processing

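Of 241 values of single members under the alternatives, 221 kept direction and side of the threshold, 10 newly passed, 5 no longer passed and 5 changed sign, all 5 in uncalled genes: Plaur (0.00 without wild-type replicate 3), Serpina5 (0.20 without tumor replicate 2), Serpinb6e (0.11 without tumor replicate 2) and Serpinh1 (0.05 with median scaling, 0.11 without tumor replicate 1). With 1 array left out at a time, their lowest values were -0.63 for Plaur, -1.87 for Serpina5, -0.41 for Serpinb6e and -0.14 for Serpinh1. The cause was not tested.

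Scaling to the hybridisation controls gave 416 genes higher and 7544 lower, against 1686 and 1468, with 3 members higher and 7 lower and 9 genes of the 5 further lists (companion genes) higher and 21 lower; 5.23% of called genes were then higher, against 53.5%. Median scaling, which moved the median of all genes by 0.09, gave 915 genes lower and 3 companion genes lower, and 65.4% of calls higher. Without a filter 3 companion genes were lower, and with a limma trend 8. The mean of all passing probe sets gave 2 members lower, adding Serpini1.

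Leaving out 1 array at a time gave 866 to 1704 genes higher and 662 to 1409 lower, the lowest without wild-type replicate 1 (without wild-type replicate 3, 1092 and 880). Members higher ranged from 6 to 7 and lower from 1 to 3, with Serpinb1a and Serpini1 added without tumor replicate 3. Companion genes higher ranged from 14 to 24 and lower from 2 (without wild-type replicate 3; 3 without wild-type replicate 2) to 7. Deviations of same-numbered samples from their group means correlated with r of -0.045, 0.028 and 0.09. Differently numbered samples gave r from -0.145 to 0.133, so these correlations cannot decide whether the numbers pair samples. With the replicate as a block 1464 genes were higher and 1138 lower, 7 members higher and 1 lower, and no member's call changed. Serpina6 could not be tested at a signal minimum of 200. Dim signals left 29 of the 43 genes without a test. Other probe sets of a gene were tested as an alternative chosen after seeing the data.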
